A study of Mus musculus with 12 samples.

Results

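Dendritic cells and macrophages that had both been given lipopolysaccharide (LPS) were compared gene by gene on 6 of the 12 arrays of the series, 3 arrays of each cell type, chosen by their labels alone. Both populations came from C57B/6 mouse bone marrow of tibia and femur that was kept for 6 days with 20 ng/ml of GM-CSF, which drives the growth of myeloid cells, and the labels call the dendritic cells GM-DC and the macrophages GM-MF. Each then received 10 ng/ml LPS for 4 hours, so neither of the groups compared is untreated. The other 6 arrays are the same populations without LPS, and they entered the estimate of the spread and the comparison of the difference with LPS to that without. The labels do not say how GM-DC and GM-MF were separated, nor whether the 3 arrays of a group came from separate mice or cultures, so p-values reflect the array-to-array spread alone, and that spread may be technical.

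LPS is a cell wall component of Gram-negative bacteria that binds CD14 and Toll-like receptor 4. The receptor signals through MyD88 to NF-kB, which switches on inflammatory cytokines, and through TRIF to IRF3, which switches on interferon beta and, through it, the interferon-stimulated genes. Dendritic cells are known for carrying antigen to lymph nodes by way of the receptor CCR7 and for activating T cells there, and macrophages for taking up, digesting and killing microbes where they meet them.

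After LPS the GM-DC arrays held far more transcript of Stat4, Fscn1, Ccr7, Flt3 and the T cell ligand Cd70. The GM-MF arrays held far more of Csf1r, Lyz2, Il1b, Nos2 and Ch25h. Of 34 listed interferon-stimulated effectors, 33 were lower in GM-DC (15.4% of all genes) and 23 at least 2-fold lower (6.5%). Ifitm1, outside that list, was higher in GM-DC. The class II genes H2-Aa, H2-Ab1 and Cd74 stood at like levels. Values are log2 expression from Affymetrix Mouse Gene 1.0 arrays, 1 unit being a 2-fold step. A difference is the GM-DC mean minus the GM-MF mean with LPS, with the standard error from limma behind the ± sign, with 3 arrays a group, and a gene was called at a Benjamini-Hochberg limma adjusted p under 0.05. Of 19938 genes, 7228 were called (36.3%), 4165 higher in GM-DC (20.9%) and 3063 lower (15.4%). After cyclic loess scaling the balance turned, with 3382 higher and 3780 lower. As deposited, 1277 genes were called and at least 2-fold higher in GM-DC (6.4%) and 1295 lower (6.5%). The larger the difference, the more of it lay toward GM-MF: 355 genes were at least 4-fold higher in GM-DC and 573 lower, 115 at least 8-fold higher and 267 lower, and 12 at least 32-fold higher and 43 lower. The median difference over all genes was 0.0018, and the values of the groups did not overlap for 44.9% of genes.

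**Figure D1:**
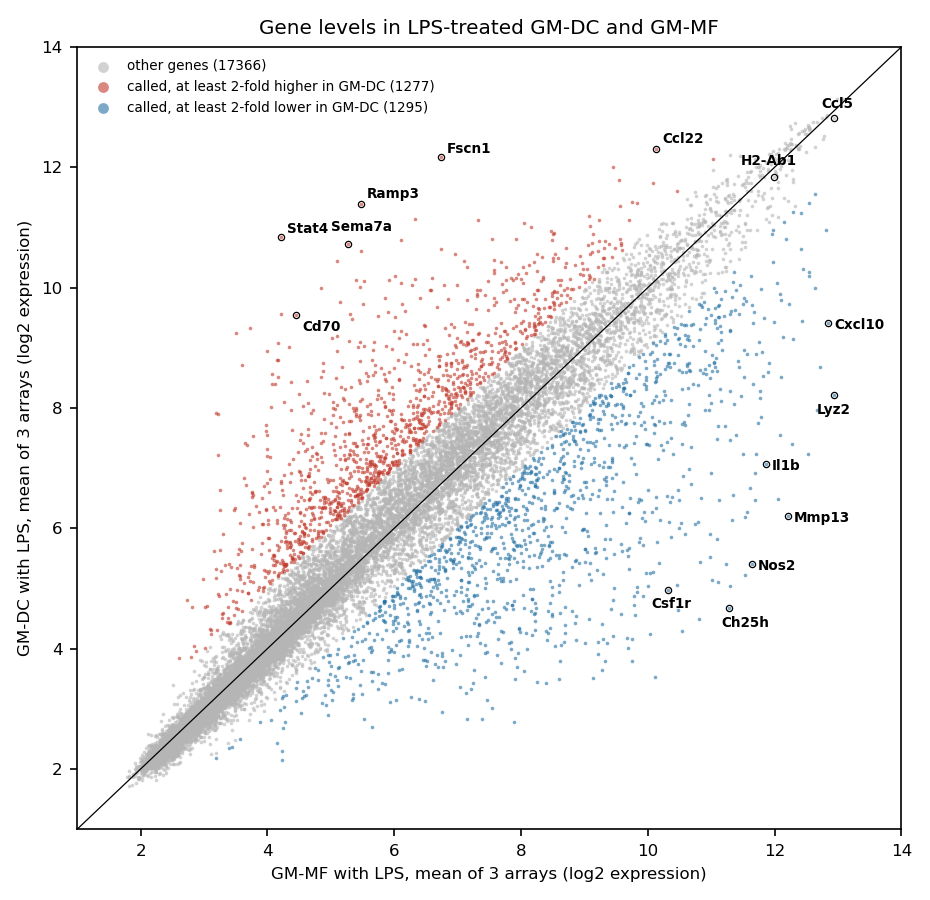
Mean log2 expression of each of 19938 genes in GM-MF with LPS (horizontal axis) and GM-DC with LPS (vertical axis), 3 arrays each, with the diagonal of equal levels. Red points are the 1277 genes called and at least 2-fold higher in GM-DC and blue points the 1295 lower. Stat4 and Fscn1 lie far above the diagonal, Ch25h and Nos2 far below it, and Ccl5 and H2-Ab1 close to it.

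Across genes, the correlation was 0.993 to 0.995 between arrays of 1 group and 0.916 to 0.933 between arrays of different groups. The first principal component of the 6 arrays held 90.0% of the variance and parted the cell types. The SD over the 3 arrays of a group had a median over genes of 0.138 for GM-DC and 0.129 for GM-MF. Array medians over genes lay between 4.72 and 4.84. No background call was available, so a level under these medians was not shown to lie above background, and a fold against it is a ratio of signals. The highest probe set value on the 6 arrays was 13.64, and whether signals near it are squeezed together was not tested. Like levels of abundant genes are therefore like signals. In bulk samples such as these, fewer cells of a type and less RNA per cell cannot be told apart.

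Stat4, a transcription factor of interleukin-12 signalling, showed the largest difference toward GM-DC. Its values were 10.68, 10.75 and 11.09 in GM-DC and 4.42, 3.96 and 4.25 in GM-MF. Values are listed for arrays 1, 2 and 3 of each group. The groups lay 99.0-fold apart, log2 6.63 ± 0.13, limma adjusted p = 3.7e-13, and the GM-MF values stood under the array medians. Ramp3, an accessory protein that shapes the ligand choice of calcitonin-type receptors, read 11.20, 11.29 and 11.66 in GM-DC and 4.86, 5.70 and 5.86 in GM-MF (60.2-fold, log2 5.91 ± 0.21). Scin, an actin-severing protein, read 9.09, 9.15 and 9.51 in GM-DC and 3.73, 3.71 and 3.09 in GM-MF (53.6-fold, log2 5.74 ± 0.16). Fscn1, the actin-bundling protein of dendritic processes, was in addition among the most abundant transcripts of GM-DC. It read 12.19, 12.24 and 12.09 in GM-DC and 6.66, 7.39 and 6.14 in GM-MF (43.5-fold, log2 5.44 ± 0.32), with the widest spread among GM-MF arrays of these 4 genes. Every one of these GM-DC values lay at least 4 log2 units above every GM-MF value of the same gene.

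The other leading genes toward GM-DC covered guidance, membrane and regulatory proteins. Sema7a, a membrane-anchored semaphorin, read 10.78, 10.87 and 10.53 in GM-DC and 5.18, 5.31 and 5.33 in GM-MF (5.46 ± 0.13). The paired membrane proteins Tmem176b (5.35 ± 0.17) and Tmem176a (5.34 ± 0.14), whose genes are neighbours, were both higher. Cd70, the ligand of the T cell receptor CD27, read 9.58, 9.85 and 9.22 in GM-DC and 4.03, 5.06 and 4.27 in GM-MF (34.2-fold, log2 5.10 ± 0.27). Satb1, a chromatin organiser of lymphoid and dendritic cells, read 8.90, 8.81 and 9.52 in GM-DC and 4.36, 4.13 and 4.01 in GM-MF (4.91 ± 0.18), and Cytip, a regulator of the adhesion of dendritic cells, 11.08, 10.97 and 11.38 in GM-DC and 6.33, 6.51 and 6.15 in GM-MF (4.81 ± 0.13). Castor2 (5.15 ± 0.12), a relative of an arginine sensor, the apolipoprotein L member Apol7c (5.14 ± 0.25), Adam23 (4.95 ± 0.21), a membrane protein of the disintegrin family, Strip2 (5.11 ± 0.14) and Ceacam15 (5.60 ± 0.15) completed the leading 15. Apol7c and Ceacam15 belong to multigene families whose members may share probes.

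Ch25h, the enzyme that makes 25-hydroxycholesterol, showed the largest difference toward GM-MF. Its values were 4.63, 5.16 and 4.22 in GM-DC and 11.18, 11.22 and 11.47 in GM-MF. The difference was 98.2-fold, log2 -6.62 ± 0.19, limma adjusted p = 1.44e-12. Nos2, the inducible nitric oxide synthase of activated macrophages, read 5.02, 5.84 and 5.35 in GM-DC and 11.68, 11.75 and 11.50 in GM-MF (75.5-fold, log2 -6.24 ± 0.44). The collagenase Mmp8 read 4.45, 5.02 and 5.66 in GM-DC and 11.33, 11.14 and 11.40 in GM-MF (-6.25 ± 0.31), and the collagenase Mmp13 5.84, 6.33 and 6.45 in GM-DC and 12.19, 12.08 and 12.36 in GM-MF (-6.0 ± 0.19). Msr1, a scavenger receptor of macrophages, read 4.95, 5.29 and 5.20 in GM-DC and 11, 10.89 and 11.14 in GM-MF (-5.87 ± 0.12). For these genes the GM-MF arrays agreed within less than 0.5 log2 units and no GM-DC value came near them.

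Further genes of the leading 15 toward GM-MF were Bst1 (-6.25 ± 0.17), a surface enzyme that cleaves NAD, Pdpn (-6.01 ± 0.16), the membrane glycoprotein podoplanin, Car4 (-5.84 ± 0.19), a membrane-bound carbonic anhydrase, and Plpp3 (-5.80 ± 0.19), a lipid phosphate phosphatase. Clmp (-5.67 ± 0.20), an adhesion protein, and Ccl12 (-5.63 ± 0.28), a chemokine for monocytes, also stood there. Rnase2a (-6.58 ± 0.24), Ms4a6d (-6.31 ± 0.18), Ly6i (-5.95 ± 0.23) and Klk1b1 (-5.83 ± 0.31) belong to multigene families with near-identical copies, and which copy gave the signal is uncertain. Their GM-DC means, 3.53 for Rnase2a, 4.5 for Ms4a6d, 3.79 for Ly6i and 4.65 for Klk1b1, all lay under the array medians.

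**Figure D2:**
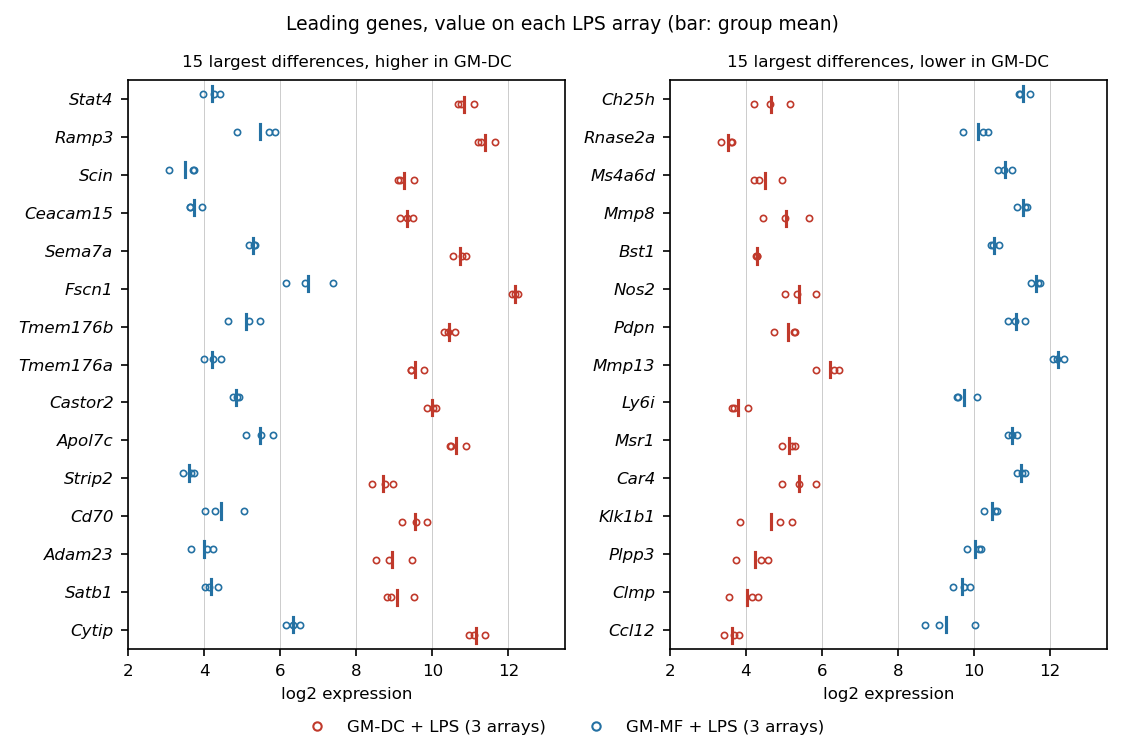
Log2 expression on each of the 3 GM-DC arrays (red) and 3 GM-MF arrays (blue) with LPS for the 15 genes with the largest difference in each direction, bars marking the group means. Only called genes whose groups did not overlap could enter, so the circles of the groups stand apart in every row by that rule. The means run from Stat4 at 10.84 against 4.21 to Ch25h at 4.67 against 11.29 (GM-DC mean first).

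Among genes that differed at least 2-fold, the most abundant in GM-DC were Ccl22, a chemokine for regulatory and memory T cells, Fscn1, Ifitm1, Ccr7 and Tmem123. Ccl22 read 12.32, 12.24 and 12.36 in GM-DC and 10.08, 10.44 and 9.87 in GM-MF (2.18 ± 0.23) and Ccr7, the receptor that guides cells to lymph nodes, 12, 11.97 and 12.03 in GM-DC and 9.39, 10.06 and 8.91 in GM-MF (2.55 ± 0.26). Ifitm1, a membrane protein that limits virus entry, stood on the GM-DC side, unlike the interferon-stimulated list described below, at 12.02, 12.06 and 12.34 in GM-DC and 10.66, 11.30 and 11.12 in GM-MF (1.12 ± 0.17). Tmem123, a surface mucin-like protein, differed by 2.23 ± 0.09. The most abundant genes of GM-MF in the same sense were Lyz2 (-4.72 ± 0.35), the lysozyme of macrophages, Cxcl10 (-3.43 ± 0.21), a chemokine for activated T cells, Ccl3 (-1.86 ± 0.14) and Ccl4 (-4.03 ± 0.23), chemokines of the macrophage inflammatory protein type, and Acod1 (-4.70 ± 0.20), which makes itaconate. Lyz2 read 7.40, 8.24 and 9.01 in GM-DC and 12.95, 12.87 and 12.99 in GM-MF, and signal of its near copy Lyz1 may be mixed with it. Acod1 read 7.63, 7.98 and 8.30 in GM-DC and 12.70, 12.60 and 12.70 in GM-MF, so the lowest GM-MF array stood above the highest GM-DC array by more than 4 log2 units.

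Against these stood genes of the lists whose 95% interval of the difference lay within -0.5 to 0.5, a range that held 51.3% of all genes. The 15 most abundant of them included Ccl5, a chemokine of late T cell and myeloid responses, at 12.87, 12.81 and 12.77 in GM-DC and 12.91, 12.92 and 12.96 in GM-MF, with an interval of -0.37 to 0.14. Ccl17, a ligand of the receptor that Ccl22 binds, had an interval of -0.41 to 0.31, and Tnfrsf9, the receptor 4-1BB, of -0.16 to 0.21. Actb (interval -0.02 to 0.34), which encodes beta actin, B2m (-0.24 to 0.13), the light chain of class I, Gpx1 (-0.06 to 0.34), a peroxide-reducing enzyme, and Aldoa (-0.28 to 0.10), a glycolytic enzyme, were also among them. Pgk1 (-0.27 ± 0.10), a glycolytic enzyme, and H2-Eb1 (0.28 ± 0.09), a class II chain, met this bound although both were called. The call of Pgk1 was lost in the fit on the 6 LPS arrays alone (limma adjusted p = 0.0644) and without any of the LPS arrays (up to 0.151). In contrast, Ftl1 (-0.24 ± 0.09), the ferritin light chain, was not called as deposited but was called after each of the 3 other scalings.

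Most markers of the cell types named on the labels lay on the side of their label, though not Itgax. Of 22 measured dendritic cell lineage factors and markers, 15 were higher in GM-DC and 2 lower, with 5 not called, against 20.9% higher and 15.4% lower among all genes, with a median difference of 1.05. These shares of all genes stand beside every list count below. The lists were chosen with earlier results of these data known, so their counts describe the values and are no test of the labels. P2ry10, a lysophospholipid receptor, read 7.95, 7.47 and 8.29 in GM-DC and 3.45, 3.33 and 2.89 in GM-MF (4.68 ± 0.23). Flt3, the receptor of the dendritic cell growth factor, read 8.53, 8.45 and 8.69 in GM-DC and 4.33, 3.88 and 3.99 in GM-MF (4.49 ± 0.15). Zbtb46, a transcription factor of classical dendritic cells, read 7.54, 7.35 and 7.37 in GM-DC and 5.39, 5.38 and 5.27 in GM-MF (2.07 ± 0.12). The groups did not overlap for any of these 3 genes, which also held for 44.9% of all genes. Spib (4.35 ± 0.23), Irf4 (4.22 ± 0.21), Batf3 (2.43 ± 0.14), Relb (1.75 ± 0.12) and Irf8 (1.15 ± 0.12), transcription factors of dendritic cell subsets or their maturation, were higher too. Bcl6 (-0.54 ± 0.15), a repressor, and Cd1d1 (-0.94 ± 0.13), which presents lipids, were lower, and Tcf4 (9.62 ± 0.27 in GM-DC and 9.45 ± 0.04 in GM-MF, SD, n = 3) was not called.

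Of 40 macrophage core genes, 0 were higher in GM-DC and 38 lower, with 2 not called, with a median of -2.36. Csf1r, which encodes the M-CSF receptor that macrophages depend on, read 4.84, 5.07 and 5.04 in GM-DC and 10.46, 10.11 and 10.37 in GM-MF (40.3-fold, log2 -5.33 ± 0.12). Fcgr1, the high-affinity receptor for IgG, read 4.87, 5.05 and 4.71 in GM-DC and 9.68, 9.84 and 9.82 in GM-MF (-4.91 ± 0.13). Mertk, which takes up dying cells, read 5.57, 6.10 and 5.32 in GM-DC and 9.05, 8.98 and 9.01 in GM-MF (-3.35 ± 0.16). GM-DC stood close to the array medians for Csf1r and Fcgr1 and higher for Mertk. No GM-DC value reached a GM-MF value, and groups did not overlap for 44.9% of all genes. Adgre1 (-2.35 ± 0.14), a surface marker of mouse macrophages, Cd14 (-3.99 ± 0.14) and the integrin CD11b gene Itgam (-4.78 ± 0.17) were lower in GM-DC as well, though Cd14 at 7.74 and Adgre1 at 7.02 were still above the array medians there. Itgax, the CD11c gene often used to mark dendritic cells, was lower in GM-DC, reading 9.02, 9.16 and 8.06 in GM-DC and 10.77, 10.62 and 10.58 in GM-MF (-1.91 ± 0.27). The members not called were Arsg, a lysosomal sulfatase (0.01 ± 0.14), and C5ar2 (-0.32 ± 0.13), a receptor of C5a that was called after each of the 3 other scalings. At an unadjusted limma p under 0.05, which 42.2% of all genes met, 0 members were higher.

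Markers of dendritic cell subsets lay on both sides. Of 12 conventional type 1 markers, 2 were higher in GM-DC (Batf3 and Irf8) and 6 lower, among them Tlr3 (-4.17 ± 0.23), a receptor for double-stranded RNA, and Naaa (-2.26 ± 0.27), a lipid amidase. Of 11 type 2 markers, 5 were higher, led by Irf4 and the lymphotoxin gene Ltb (1.12 ± 0.15), and 4 lower, led by the lectins Mgl2 (-3.89 ± 0.23) and Clec10a (-3.52 ± 0.23). Of 8 plasmacytoid markers, 2 were higher (Spib and Pacsin1, 1.03 ± 0.16) and 3 lower. The list means over arrays ran from 6.08 to 6.44 in GM-DC and 7.05 to 7.15 in GM-MF for type 1, from 6.09 to 6.22 and 6.29 to 6.44 for type 2, and from 6.52 to 6.62 and 6.13 to 6.28 for plasmacytoid markers.

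**Figure D3:**
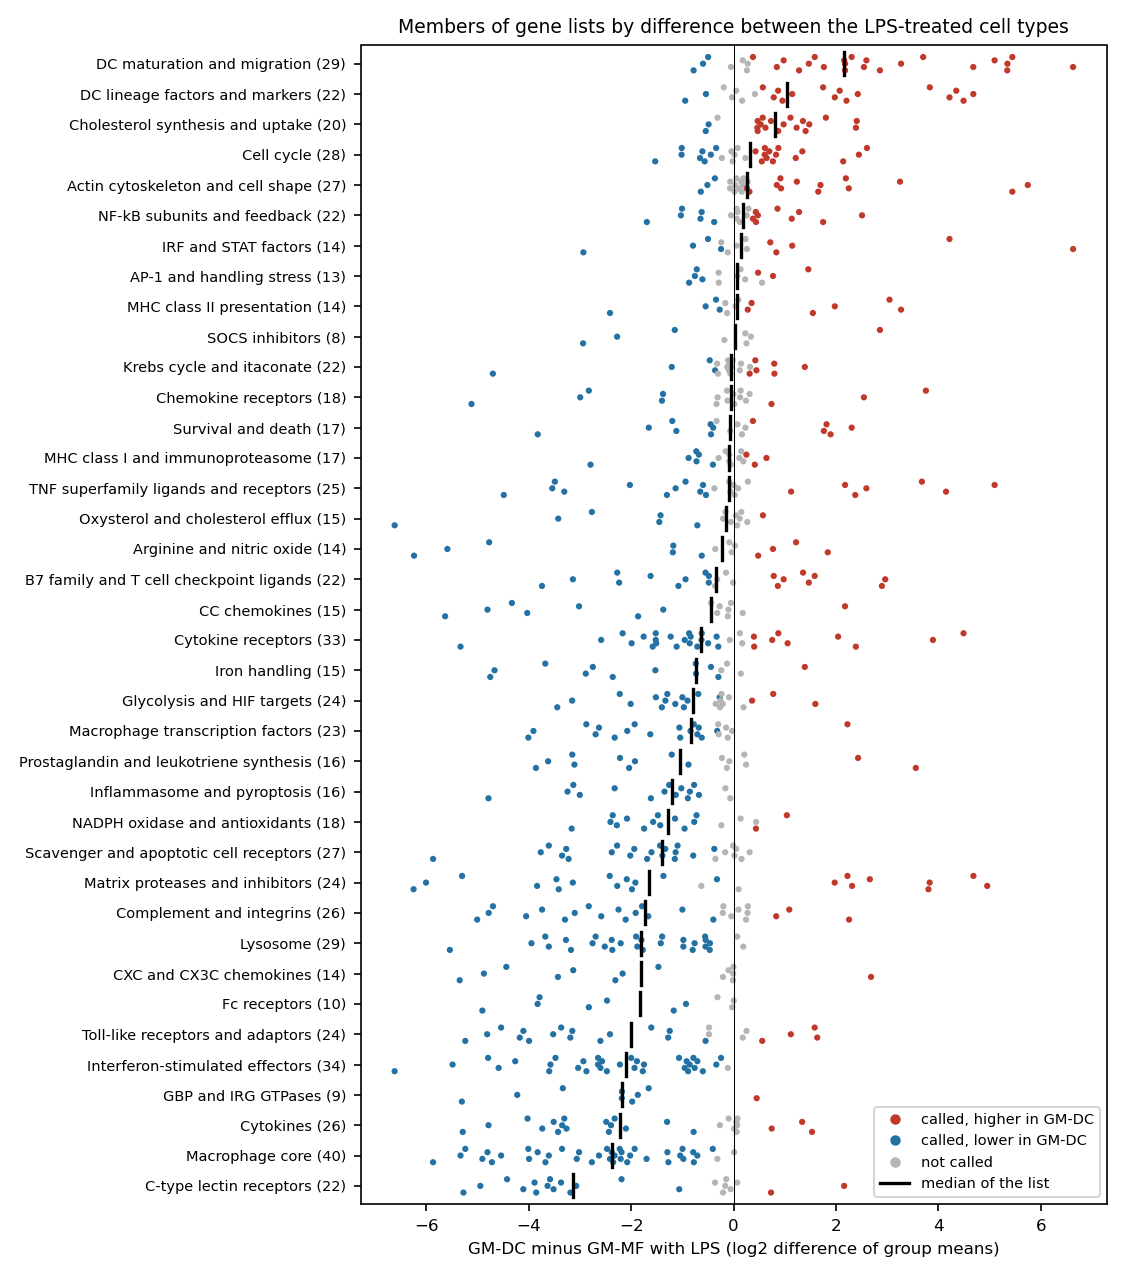
Difference of group means (GM-DC minus GM-MF with LPS, log2) for each measured member of 38 gene lists, with the number of members in parentheses. Red points are members called higher in GM-DC, blue points lower, grey points not called, and black bars the list medians, which run from 2.16 for maturation and migration genes to -3.13 for C-type lectin receptors.

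Maturation and migration genes were the list with the highest median toward GM-DC. Of 29 measured members, 22 were higher in GM-DC and 3 lower, with 4 not called, with a median of 2.16. Cd83, a maturation marker that holds class II at the surface, read 10.82, 10.83 and 10.80 in GM-DC and 7.37, 7.82 and 7.44 in GM-MF (3.27 ± 0.21). Socs2, an inhibitor of growth factor signalling, read 10.93, 11.08 and 11.02 in GM-DC and 8.11, 8.32 and 8.04 in GM-MF (2.86 ± 0.11). Ly75, the endocytic receptor DEC-205, differed by 2.16 ± 0.13, Bcl2l1, which encodes the survival protein BCL-XL, by 2.31 ± 0.18 and Traf1, an adaptor of TNF receptors, by 1.28 ± 0.13. The members lower in GM-DC were Il15 (-0.78 ± 0.11), a growth factor of memory T cells and NK cells, its receptor chain Il15ra (-0.50 ± 0.12) and Cd40 (-0.60 ± 0.20), the receptor of T cell help. Cd40 read 11, 11.13 and 10.76 in GM-DC and 11.58, 11.55 and 11.54 in GM-MF, and its call was lost after quantile normalization (limma adjusted p = 0.0512) and without any of 5 of the 6 LPS arrays, all but GM-DC array 2 (adjusted p up to 0.103).

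Ligands that act on T cells were split. Of 22 members of the B7 family and other checkpoint ligands, 8 were higher in GM-DC and 10 lower, with 4 not called, median -0.34. Cd80 read 10.64, 10.72 and 10.32 in GM-DC and 9.05, 9.15 and 9.07 in GM-MF (1.47 ± 0.14), and Cd86 11.45, 11.54 and 11.23 in GM-DC and 9.66, 9.92 and 9.89 in GM-MF (1.58 ± 0.11). Both encode the costimulatory ligands of CD28, and both were higher in GM-DC on every array. Groups did not overlap for 44.9% of all genes. Pvr (2.90 ± 0.17), the poliovirus receptor that binds TIGIT and CD226, and Slamf1 (2.96 ± 0.17), a self-ligand of lymphocytes, differed more than either. Slamf8 (-3.74 ± 0.20) and Slamf6 (-2.27 ± 0.20), of the same family as Slamf1, and Cd200r1 (-3.14 ± 0.18), an inhibitory receptor, were lower. Cd274, the ligand PD-L1, named here after its values were seen, was lower in GM-DC at -1.08 ± 0.11.

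TNF superfamily ligands and receptors were split as well. Of 25 members, 7 were higher in GM-DC and 11 lower, with 7 not called, median -0.09. After Cd70 the members furthest toward GM-DC were receptors better known on T cells. Tnfrsf18, which encodes GITR, read 9.41, 9.45 and 9.58 in GM-DC and 5.25, 5.73 and 5.02 in GM-MF (4.15 ± 0.16), and Tnfrsf4, which encodes OX40, 8.44, 8.24 and 8.87 in GM-DC and 4.85, 4.6 and 5.07 in GM-MF (3.68 ± 0.23). The ligand of OX40, Tnfsf4 (2.59 ± 0.17), and that of 4-1BB, Tnfsf9 (2.18 ± 0.22), both named after their values were seen, were higher in the same cells. Toward GM-MF lay the receptor gene Tnfrsf26 (-4.49 ± 0.16), the death ligand gene Tnfsf10 (-3.54 ± 0.22), which encodes TRAIL, and Tnfsf8 (-3.49 ± 0.27), the CD30 ligand. The death receptor gene Fas (8.65 ± 0.05 in GM-DC and 8.72 ± 0.12 in GM-MF, SD, n = 3) was not called.

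**Figure D4:**
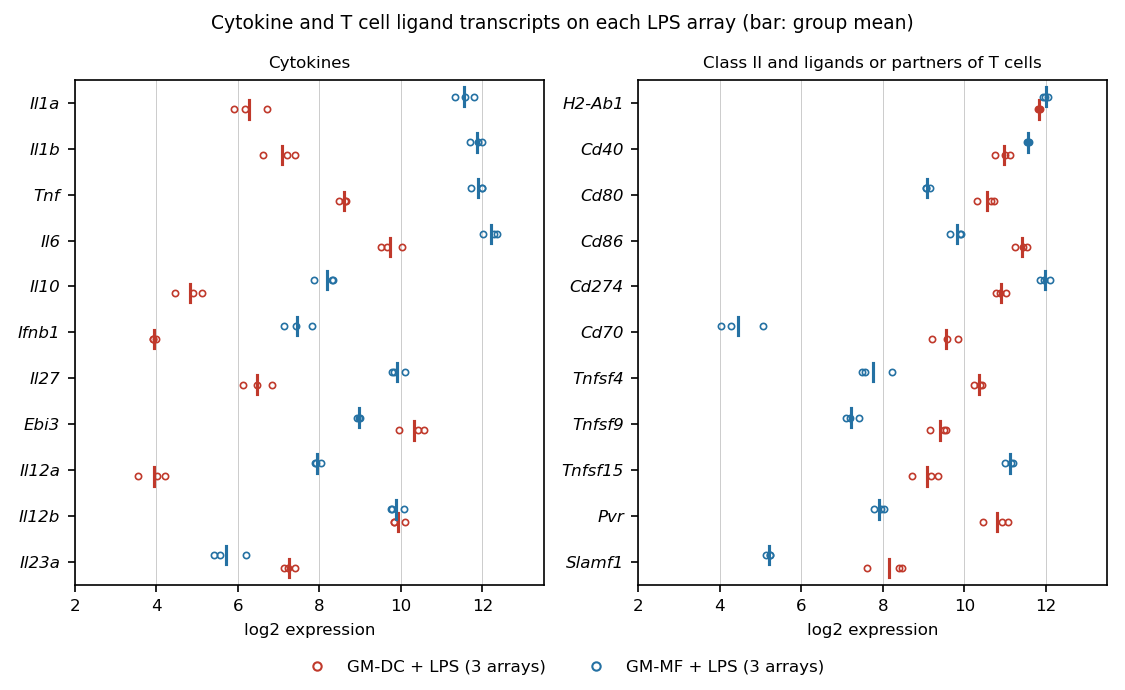
Log2 expression on each array with LPS, 3 GM-DC (red) and 3 GM-MF (blue), for cytokines (left) and for class II and ligands or partners of T cells (right), bars marking the group means. The circles of Il12b and of H2-Ab1 lie within 0.5 log2 units of each other, those of Il1a stand more than 4 units apart toward GM-MF, and those of Cd70 more than 4 units apart toward GM-DC.

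The class II regulators Ciita and Marchf1 differed in opposite directions, while H2-Aa, H2-Ab1 and Cd74 were not called. Of 14 members, 6 were higher in GM-DC and 4 lower, with 4 not called, with a median of 0.06 that turned to -0.04 after cyclic loess. H2-Aa (12.13 ± 0.05 in GM-DC and 12.04 ± 0.02 in GM-MF, SD, n = 3), H2-Ab1 (11.83 ± 0.02 in GM-DC and 12 ± 0.06 in GM-MF) and Cd74 (12.07 ± 0.04 in GM-DC and 12.04 ± 0.06 in GM-MF), class II chains and their chaperone, had 95% intervals of the difference of -0.09 to 0.28, -0.34 to 0.02 and -0.15 to 0.23. H2-Ab1 read 11.83, 11.86 and 11.81 in GM-DC and 12.06, 11.99 and 11.94 in GM-MF, a difference of -0.16 ± 0.08 that was called after cyclic loess (limma adjusted p = 0.0158) and with an eBayes trend (0.0095), but with the 2 other scalings was not. H2-Eb1 (0.28 ± 0.09) was called as deposited but not after any of the 3 other scalings. Ciita, the master regulator of class II transcription, read 7.57, 7.42 and 7.43 in GM-DC and 5.24, 5.91 and 5.33 in GM-MF (1.98 ± 0.17), and H2-Eb2 (3.04 ± 0.15) was higher as well. Marchf1, a ubiquitin ligase that sends surface class II to degradation, read 4.36, 4.41 and 5.12 in GM-DC and 6.95, 7.0 and 7.17 in GM-MF (-2.41 ± 0.16). The lysosomal proteases that trim antigen and invariant chain, Ctss (-0.55 ± 0.11) and Lgmn (-0.34 ± 0.09), were lower in GM-DC.

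Of 17 class I and immunoproteasome genes, 3 were higher in GM-DC (17.6%) and 6 lower (35.3%), with 8 not called, median -0.09. The shares of all genes were 20.9% and 15.4%. Tapbpl (0.64 ± 0.12), a peptide editor, was higher. Psmb10 (-0.88 ± 0.10), a subunit of the immunoproteasome, Nlrc5 (-0.73 ± 0.13), the class I transactivator, and H2-M2 (-2.79 ± 0.20), a nonclassical class I gene, were lower, while the subunit Psmb9 (11.87 ± 0.04 in GM-DC and 11.76 ± 0.09 in GM-MF, SD, n = 3) was not called. Class I genes have many near-identical copies, so H2-M2 and H2-Q4 (0.41 ± 0.11, lost after cyclic loess at limma adjusted p = 0.108) are uncertain as single genes. Psme1 (0.25 ± 0.09), a proteasome activator chain, was the remaining member that was higher, and it lost its call after median centring (limma adjusted p = 0.1), after cyclic loess (0.346), in the fit on the 6 LPS arrays alone (0.0794), with the replicate block (0.0503) and without any single LPS array (up to 0.121). After cyclic loess 1 member, Tapbpl, was thus still called higher.

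Most cytokine transcripts were lower in GM-DC after LPS. Of 26 measured cytokines, 3 were higher in GM-DC and 16 lower, with 7 not called, median -2.21. Il1a read 5.91, 6.18 and 6.72 in GM-DC and 11.57, 11.31 and 11.79 in GM-MF (39.1-fold, log2 -5.29 ± 0.20). Il1b, whose product is cut into its active form by caspase-1, read 6.62, 7.20 and 7.40 in GM-DC and 11.89, 11.70 and 11.99 in GM-MF (27.6-fold, log2 -4.79 ± 0.18). Tnf read 8.64, 8.65 and 8.49 in GM-DC and 11.99, 11.72 and 11.98 in GM-MF (9.89-fold, log2 -3.31 ± 0.27). The values of the cell types stood clear of each other for all 3, as for 44.9% of all genes, with GM-DC above the array medians. Il6 read 9.51, 9.67 and 10.02 in GM-DC and 12.28, 12.02 and 12.36 in GM-MF (-2.49 ± 0.29), Il10, which dampens inflammation, 4.45, 4.91 and 5.12 in GM-DC and 7.87, 8.31 and 8.34 in GM-MF (-3.35 ± 0.21), and Ifnb1, interferon beta, 3.93, 3.99 and 3.91 in GM-DC and 7.42, 7.12 and 7.83 in GM-MF (-3.51 ± 0.22). For Ifnb1 all 3 GM-DC values were under the array medians and all 3 GM-MF values above them. Il19 (-3.74 ± 0.15), a relative of Il10, was lower in GM-DC too.

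The interleukin-12 family did not move as a block. Il12a, the chain p35 of interleukin-12, read 3.55, 4.02 and 4.22 in GM-DC and 7.92, 7.90 and 8.04 in GM-MF (-4.02 ± 0.21). Il12b, the chain p40 shared by interleukins 12 and 23, read 9.84, 10.10 and 9.84 in GM-DC and 9.76, 10.07 and 9.78 in GM-MF, a difference of 0.05 ± 0.24 with a 95% interval of -0.47 to 0.58 that was not called (limma adjusted p = 0.905). Il23a, the chain p19 of interleukin-23, read 7.24, 7.40 and 7.12 in GM-DC and 5.55, 5.40 and 6.2 in GM-MF (1.53 ± 0.20), and Ebi3, a chain of interleukins 27 and 35, 10.56, 10.42 and 9.96 in GM-DC and 8.93, 9.0 and 8.98 in GM-MF (1.34 ± 0.13). Il27, the partner of Ebi3 in interleukin-27, was named after its values were seen and lay the other way at -3.43 ± 0.18. GM-DC therefore stood lower for p35 and higher for p19 while p40 was not told apart. Lif (0.74 ± 0.21) was the remaining cytokine higher in GM-DC, and its call was lost without GM-DC array 2 or without GM-MF array 2 with LPS (limma adjusted p = 0.0601 and 0.0524). Osm (6.31 ± 0.33 in GM-DC and 6.23 ± 0.18 in GM-MF, SD, n = 3) was not called.

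Ccl12, Ccl7, Ccl8 and Cxcl3 were far higher in GM-MF, whereas Ccl22 and Cx3cl1 were higher in GM-DC. Of 15 CC chemokines, 1 was higher in GM-DC (Ccl22) and 7 lower, with 7 not called, median -0.44. Ccl12 read 3.42, 3.82 and 3.68 in GM-DC and 8.71, 9.09 and 10.02 in GM-MF, Ccl7 5.06, 5.50 and 5.28 in GM-DC and 9.79, 9.80 and 10.67 in GM-MF (-4.80 ± 0.26) and Ccl8 3.32, 3.20 and 2.90 in GM-DC and 7.16, 6.99 and 8.25 in GM-MF (-4.33 ± 0.39). These are ligands of receptors on monocytes, and the GM-DC values of Ccl12 and Ccl8 lay under the array medians. Of 14 CXC and CX3C chemokines, 1 was higher in GM-DC and 8 lower, with 5 not called, median -1.82. The member that was higher, Cx3cl1, the membrane-bound fractalkine, read 8.65, 8.55 and 8.60 in GM-DC and 5.91, 6.28 and 5.55 in GM-MF (2.68 ± 0.16). Pf4 (-5.35 ± 0.26), platelet factor 4, Cxcl3 (-4.87 ± 0.35), a neutrophil attractant, and Cxcl9 (-4.44 ± 0.18), an interferon-induced T cell attractant, were lower, and Cxcl16 (10.85 ± 0.07 in GM-DC and 11.06 ± 0.02 in GM-MF, SD, n = 3) was not called as deposited but was called after median centring and after cyclic loess.

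Among 18 chemokine receptors 3 were higher in GM-DC (16.7%) and 5 lower (27.8%), with 10 not called, median -0.06. Of all genes 20.9% were higher and 15.4% lower. Cxcr4, the receptor of CXCL12, read 9.97, 9.83 and 10.31 in GM-DC and 6.21, 6.35 and 6.28 in GM-MF (3.76 ± 0.12), the largest difference of the list toward GM-DC, followed by Ccr7. Cxcr5 (0.74 ± 0.19) was called at levels under the array medians. Ccr1, a receptor of the Ccl3 type of chemokines, read 2.75, 3.0 and 2.59 in GM-DC and 7.93, 7.57 and 8.18 in GM-MF (-5.12 ± 0.19), Ccrl2, a non-signalling receptor, 7.76, 8.03 and 8.12 in GM-DC and 11.02, 10.82 and 11.05 in GM-MF (-2.99 ± 0.16), and Ccr2, the receptor of monocyte attractants, 3.09, 3.28 and 2.94 in GM-DC and 6.0, 5.85 and 5.94 in GM-MF (-2.83 ± 0.13). Cx3cr1, the receptor of fractalkine, was not called (5.47 ± 0.09 in GM-DC and 5.33 ± 0.23 in GM-MF, SD, n = 3).

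Of 33 cytokine receptor genes, 9 were higher in GM-DC and 21 lower, with 3 not called, median -0.63. Il2ra, the chain CD25 of the interleukin-2 receptor, read 10.48, 10.59 and 10.84 in GM-DC and 6.57, 7.16 and 6.5 in GM-MF (3.89 ± 0.18), and Il18r1, a chain of the interleukin-18 receptor, differed by 2.39 ± 0.17. Toward GM-MF lay Il1rap (-2.59 ± 0.17), the shared partner of interleukin-1 type receptors, and Il10rb (-2.17 ± 0.13), a chain of the interleukin-10 receptor. Il4ra (9.47 ± 0.13 in GM-DC and 9.30 ± 0.14 in GM-MF, SD, n = 3) was not called.

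Interferon-stimulated effectors, the antiviral genes that interferons switch on, were lower in GM-DC almost without exception. Of 34 members, 0 were higher and 33 lower, with 1 (Stat2) not called, with a median of -2.11. At an unadjusted limma p under 0.05, 0 were higher. Slfn4, a Schlafen gene of myeloid cells, read 4.22, 4.26 and 4.05 in GM-DC and 9.41, 9.68 and 9.91 in GM-MF (-5.49 ± 0.18). Ifit3, which binds viral RNA together with Ifit1, read 6.29, 6.93 and 6.45 in GM-DC and 11.37, 11.41 and 11.27 in GM-MF (-4.79 ± 0.18). Irf7, the factor that amplifies interferon production, read 7.58, 8.37 and 7.94 in GM-DC and 10.92, 10.94 and 10.82 in GM-MF (-2.93 ± 0.16). Rtp4 (-3.60 ± 0.21), Ifit2 (-3.48 ± 0.17), Samd9l (-3.03 ± 0.17), Ifit1 (-2.65 ± 0.15) and Ifi205 (-2.57 ± 0.15) were lower as well. Except for Slfn4 the GM-DC levels of these genes were above the array medians. Stat2, a subunit of the factor that drives these genes, read 9.96, 10.28 and 9.94 in GM-DC and 10.18, 10.20 and 10.13 in GM-MF, and Bst2 (-0.34 ± 0.12), which tethers budding viruses, differed little, its call being lost without any of 4 LPS arrays. Members of the Ifit, Slfn and Ifi families have near copies in the mouse genome, so a share of their signal may come from a relative.

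Of 9 measured guanylate-binding and immunity-related GTPases, which attack the vacuoles of pathogens, 8 were lower in GM-DC and 1 was higher, median -2.18. Iigp1 read 3.70, 4.15 and 3.88 in GM-DC and 9.39, 9.04 and 9.21 in GM-MF (-5.31 ± 0.15), Gbp7 6.04, 6.76 and 5.53 in GM-DC and 10.30, 10.32 and 10.37 in GM-MF (-4.22 ± 0.27) and Gbp3 7.28, 7.54 and 7.23 in GM-DC and 10.78, 10.54 and 10.72 in GM-MF (-3.33 ± 0.11). Gbp8 (0.45 ± 0.16) was the member that was higher, a call lost after median centring (limma adjusted p = 0.0769), after cyclic loess (0.157), in the fit on the 6 LPS arrays alone (0.0634) and without GM-DC array 1, GM-DC array 2 or GM-MF array 3 with LPS (up to 0.189). These genes lie in clusters of near copies, and of 17 list entries 9 had a probe set of their own here.

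Windows of 300 bases around the starts of interferon-stimulated genes are shown because these genes moved together and the factor that interferons activate is known to bind a pair of GAAA repeats. The motif searched was GAAA, then any 2 bases, then GAAA. The 4 called members of both lists with the largest difference whose window held it on either strand were Ifit3, Gbp7, Gbp3 and Ddx58, the last being the RNA sensor RIG-I (-2.87 ± 0.18). Sequences are from RefSeq on build GRCm38.p6, in the direction of the gene from 250 bases before to 50 after the start, with the motif or its complement in capitals. Ifit3 lies at chr19:34583279-34583578 on the + strand, Gbp7 at chr3:142530086-142530385 on the + strand, Gbp3 at chr3:142559794-142560093 on the + strand and Ddx58 at chr4:40239776-40240075 on the - strand.
Ifit3: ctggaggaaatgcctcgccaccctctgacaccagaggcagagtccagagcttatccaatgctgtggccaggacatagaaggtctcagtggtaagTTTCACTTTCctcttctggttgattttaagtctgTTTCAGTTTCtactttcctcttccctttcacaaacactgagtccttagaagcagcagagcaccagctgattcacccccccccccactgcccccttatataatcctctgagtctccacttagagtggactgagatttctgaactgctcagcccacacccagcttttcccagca
Gbp7: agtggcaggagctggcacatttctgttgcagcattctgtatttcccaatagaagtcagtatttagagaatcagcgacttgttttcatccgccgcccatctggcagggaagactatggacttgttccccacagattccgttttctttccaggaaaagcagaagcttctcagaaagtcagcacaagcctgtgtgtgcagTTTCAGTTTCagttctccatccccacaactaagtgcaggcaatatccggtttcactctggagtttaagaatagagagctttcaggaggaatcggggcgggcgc
Gbp3: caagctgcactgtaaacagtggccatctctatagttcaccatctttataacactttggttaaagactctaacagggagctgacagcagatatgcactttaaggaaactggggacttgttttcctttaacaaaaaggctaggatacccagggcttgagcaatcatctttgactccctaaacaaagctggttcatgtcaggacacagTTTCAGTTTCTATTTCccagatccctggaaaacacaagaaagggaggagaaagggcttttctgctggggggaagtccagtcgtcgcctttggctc
Ddx58: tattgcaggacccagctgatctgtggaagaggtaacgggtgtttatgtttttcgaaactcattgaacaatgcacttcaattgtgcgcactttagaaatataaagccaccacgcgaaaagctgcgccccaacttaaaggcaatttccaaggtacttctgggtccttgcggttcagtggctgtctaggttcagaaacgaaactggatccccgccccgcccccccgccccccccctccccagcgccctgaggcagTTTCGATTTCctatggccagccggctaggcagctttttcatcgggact
In Ifit3 the window held 2 matches, starting 156 and 122 bases before the gene start, in Gbp3 2 overlapping matches, and in Gbp7 and Ddx58 1 each, all on the strand opposite to the gene. The motif was found in 13 of 26 windows of the interferon-stimulated list (50%), 4 of 4 of the GTPase list, and in 607 of 15614 measured genes with a window (3.89%). Of the 14 leading genes toward GM-DC that had a window 3 held it, and of 9 toward GM-MF 1. A match describes the letters of the window and is no evidence of binding.

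Most Toll-like receptors and adaptors called were lower in GM-DC. Of 24 Toll-like receptors and adaptors, 4 were higher in GM-DC and 16 lower, with 4 not called, median -2.01. Tlr4, the receptor of LPS, read 5.88, 5.86 and 5.04 in GM-DC and 8.27, 7.60 and 8.15 in GM-MF (-2.41 ± 0.26). Its helper Cd14 read 7.82, 7.91 and 7.5 in GM-DC and 11.75, 11.59 and 11.87 in GM-MF (-3.99 ± 0.14), whereas Ly96, which encodes the LPS-binding partner MD-2, was not called (8.40 ± 0.12 in GM-DC and 8.88 ± 0.16 in GM-MF, SD, n = 3) as deposited but was called after median centring (limma adjusted p = 0.0407), after cyclic loess (0.0111) and in the fit on the 6 LPS arrays alone (0.00858). Tlr7 (-5.24 ± 0.18), for single-stranded RNA, Cd180 (-4.81 ± 0.19), a relative of Tlr4, and Tlr8 (-4.54 ± 0.20) were lower. Tlr9 (1.12 ± 0.15), for bacterial DNA, Tlr12 (1.63 ± 0.22), for profilin of parasites, and the ligase gene Traf6 (1.58 ± 0.12) were higher in GM-DC.

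Of 22 NF-kB subunits and feedback genes, 9 were higher in GM-DC and 6 lower, with 7 not called, median 0.19. The genes at the top were those of the noncanonical branch, the kinase gene Map3k14 (2.51 ± 0.19), which encodes NIK, and Relb. Ikbke (-1.69 ± 0.14), a kinase upstream of IRF3, Zc3h12a (-1.03 ± 0.15), which degrades cytokine mRNA, and Ikbkg (-1.01 ± 0.10) were lower. The inhibitor Nfkbia (11.53 ± 0.15 in GM-DC and 11.27 ± 0.03 in GM-MF, SD, n = 3) was not called as deposited but was called after quantile normalization (limma adjusted p = 0.0202) and without GM-DC array 3 with LPS (0.028). Among 14 IRF and STAT factors 5 were higher, led by Stat4 and Irf4, and 4 lower, led by Irf7. Of the 8 SOCS inhibitors Socs2 was higher, while Socs3 (-2.94 ± 0.16), which restrains interleukin-6 signalling, Socs1 (-2.27 ± 0.11), which restrains interferon signalling, and Socs7 (-1.15 ± 0.11) were lower.

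No inflammasome gene was higher in GM-DC. Of 16 members 14 were lower, with 2 not called, median -1.19, and 0 were higher at an unadjusted limma p under 0.05. Nlrp3, which senses cell damage, read 6.42, 6.38 and 6.24 in GM-DC and 9.68, 9.39 and 9.69 in GM-MF (-3.24 ± 0.18), and P2rx7 (-3.13 ± 0.16), the ATP-gated channel that triggers it, was lower too. Of 17 survival and death genes 5 were higher and 7 lower. Mlkl, the pore former of necroptosis, read 5.54, 6.13 and 4.86 in GM-DC and 9.37, 9.23 and 9.41 in GM-MF (-3.82 ± 0.23), and Ripk3 (-1.66 ± 0.14), the kinase that activates it, was lower as well. Pmaip1 (1.89 ± 0.16), which encodes NOXA, was higher together with Bcl2l1.

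Most receptors for uptake that were called were lower in GM-DC. Of 22 C-type lectin receptors, 2 were higher in GM-DC (Ly75 and Mrc2, 0.73 ± 0.13) and 14 lower, with 6 not called, median -3.13, the lowest of the lists. Clec4d, a receptor for mycobacterial lipids, read 6.21, 6.74 and 7.06 in GM-DC and 11.57, 11.52 and 11.75 in GM-MF (-4.94 ± 0.22). Clec4a1 (-5.27 ± 0.19) and Clec4a2 (-4.42 ± 0.15) were lower also, but the Clec4a genes are close copies. Of 10 Fc receptors 0 were higher and 7 lower, median -1.82, with Fcgr4 (-3.83 ± 0.26) and the inhibitory Fcgr2b (-3.79 ± 0.21) beside Fcgr1. Of 27 scavenger and apoptotic cell receptors 0 were higher and 20 lower, median -1.39 (1 higher and, among Fc receptors, 0 higher at an unadjusted p under 0.05), including Cd68 (-3.61 ± 0.10), a lysosomal marker of macrophages, and Cd300lf (-3.76 ± 0.15). Scarb2 (9.74 ± 0.13 in GM-DC and 9.69 ± 0.05 in GM-MF, SD, n = 3), a carrier of lysosomal enzymes, was not called.

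Of 26 complement genes and integrins measured, 3 were higher in GM-DC and 16 lower, with 7 not called, median -1.73. The members that were higher were the integrin chains Itga6 (2.25 ± 0.19), Itga4 (1.09 ± 0.11) and Itgav (0.83 ± 0.17), which bind laminin, VCAM-1 and vitronectin. C5ar1, the receptor of the complement fragment C5a, read 4.48, 4.29 and 4.93 in GM-DC and 9.51, 9.36 and 9.85 in GM-MF (-5.01 ± 0.19), and C3ar1, the receptor of C3a, 6.16, 6.29 and 5.84 in GM-DC and 10.81, 10.69 and 10.89 in GM-MF (-4.70 ± 0.18). Itgam read 5.57, 5.28 and 4.92 in GM-DC and 10.15, 9.82 and 10.13 in GM-MF. The values of the cell types stood clear of each other for all 3, as for 44.9% of all genes.

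Most lysosomal genes were lower in GM-DC, and as deposited none was called higher. Of 29 members 27 were lower, with 2 not called, median -1.80, and 0 were higher at an unadjusted limma p under 0.05. Ctsk, a collagen-degrading cathepsin, read 3.40, 4.03 and 3.94 in GM-DC and 9.46, 9.18 and 9.35 in GM-MF (-5.54 ± 0.19). Atp6v0d2, a subunit of the acidifying pump, read 6.88, 6.98 and 6.34 in GM-DC and 10.79, 10.52 and 10.73 in GM-MF (-3.95 ± 0.19), and Acp5, an acid phosphatase, 6.94, 7.14 and 6.54 in GM-DC and 10.48, 10.37 and 10.80 in GM-MF (-3.68 ± 0.20). The members not called were Cd63 (11.49 ± 0.05 in GM-DC and 11.31 ± 0.01 in GM-MF, SD, n = 3), a membrane protein of late endosomes, and Tfeb (4.84 ± 0.13 in GM-DC and 4.77 ± 0.04 in GM-MF), a transcription factor of lysosomal genes. With an eBayes trend Cd63 was called higher in GM-DC (limma adjusted p = 0.0408).

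Of 20 genes of cholesterol synthesis and uptake 17 were higher in GM-DC and 2 lower, with 1 not called, with a median of 0.80 against -0.09 without LPS. Idi1, the isomerase of isoprenoid units, read 10.89, 10.84 and 10.96 in GM-DC and 8.53, 8.52 and 8.47 in GM-MF (2.39 ± 0.12). Pmvk, phosphomevalonate kinase, read 9.29, 9.26 and 9.48 in GM-DC and 6.83, 7.24 and 6.75 in GM-MF (2.40 ± 0.14). Sqle, which oxidises squalene, read 8.58, 8.43 and 9.06 in GM-DC and 6.91, 6.91 and 6.85 in GM-MF (1.80 ± 0.17). The 3 genes did not overlap between groups, as was so for 44.9% of all genes. Insig1 (-0.54 ± 0.14), which holds back the pathway's transcription factor, and Ebp (-0.49 ± 0.16), a sterol isomerase whose call was lost without any of 4 LPS arrays, GM-DC arrays 2 and 3 and GM-MF arrays 1 and 2 (limma adjusted p up to 0.107), were lower. Ch25h, Plin2 (-3.42 ± 0.17), which coats lipid droplets, and Abca1 (-2.77 ± 0.19), which exports cholesterol, were lower in GM-DC. They belong to the list on oxysterols and efflux, where 1 of 15 members was higher and 6 were lower, with 8 not called. The member that was higher, Scd1 (0.57 ± 0.21), a fatty acid desaturase, lost its call after each of the 3 other scalings (limma adjusted p = 0.064 to 0.14), without any of 4 LPS arrays (up to 0.235) and without any of 3 arrays without LPS (up to 0.0527).

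The window of Hmgcs1 (1.35 ± 0.16), hydroxymethylglutaryl-CoA synthase, is shown because it alone of 16 windows of the cholesterol list held TCACNCCAC, the core of the sterol regulatory element that the factor SREBP binds, on either strand. It lies at chr13:119690101-119690400 on the + strand of GRCm38.p6 (RefSeq), the motif, on the strand of the gene, is in capitals and starts 137 bases before the gene start.
Hmgcs1: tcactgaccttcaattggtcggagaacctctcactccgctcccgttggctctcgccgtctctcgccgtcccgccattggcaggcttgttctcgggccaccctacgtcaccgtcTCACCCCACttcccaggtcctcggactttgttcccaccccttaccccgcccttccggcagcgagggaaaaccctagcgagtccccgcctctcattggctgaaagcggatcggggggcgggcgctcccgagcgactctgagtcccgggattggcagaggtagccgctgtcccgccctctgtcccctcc
Of all 32851 windows 408 (1.24%) held this motif, and of measured genes with a window 218 of 15614 (1.4%).

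Other metabolic lists leaned toward GM-MF or were split. Of 24 glycolysis and HIF target genes 3 were higher in GM-DC and 14 lower, median -0.79. Hk3 (-3.44 ± 0.17) and Hk2 (-2.22 ± 0.28), which trap glucose, and Slc16a1 (-3.15 ± 0.16), a lactate transporter, were lower. Eno2 (1.6 ± 0.19), an enolase, was higher. The other members that were higher, Pfkfb3 (0.77 ± 0.24), which speeds glycolysis, and Hk1 (0.36 ± 0.10), a hexokinase, both lost their call after cyclic loess (limma adjusted p = 0.066 and 0.0696), leaving 1. Pfkfb3 also lost it without GM-DC array 3, GM-MF array 1 or GM-MF array 3 with LPS (up to 0.078), and Hk1 with averaged probe sets (0.503). Of 22 Krebs cycle and itaconate genes 6 were higher (27.3%) and 4 lower (18.2%), median -0.05, near the 20.9% and 15.4% of all genes. Aco1 (1.39 ± 0.11), Mdh1 (0.80 ± 0.09) and Idh1 (0.79 ± 0.12), cytosolic enzymes, were among those higher. Acod1 and Idh2 (-1.21 ± 0.15), a mitochondrial one, were among those lower. Of 14 genes of arginine and nitric oxide 4 were higher and 6 lower. Arg1, which breaks arginine down, read 4.02, 4.31 and 4.17 in GM-DC and 9.55, 9.46 and 10.26 in GM-MF (-5.59 ± 0.20), and Slc7a2, which imports it, 6.74, 7.23 and 6.77 in GM-DC and 11.74, 11.61 and 11.71 in GM-MF (-4.77 ± 0.14). Nos2, Arg1 and Slc7a2 thus stood together in GM-MF, whereas Spr (1.84 ± 0.10), an enzyme for the cofactor of nitric oxide synthases, and Asl (1.22 ± 0.12), which makes arginine, were higher in GM-DC.

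Most called genes of lipid mediators and of the list of NADPH oxidase and antioxidants were lower in GM-DC. Of 16 prostaglandin and leukotriene genes 2 were higher in GM-DC and 9 lower, median -1.04. Ptgs2, the inducible cyclooxygenase, read 8.89, 9.15 and 9.38 in GM-DC and 12.33, 12.08 and 12.46 in GM-MF (-3.15 ± 0.31), and Ptges (-3.62 ± 0.15), which makes prostaglandin E2 from its product, was lower as well. Ptger4, a receptor of prostaglandin E2, read 10.13, 10.07 and 10.28 in GM-DC and 6.48, 6.72 and 6.61 in GM-MF (3.56 ± 0.12), so enzyme and receptor lay on opposite sides. Of 18 NADPH oxidase and antioxidant genes 2 were higher and 13 lower, median -1.29. Cybb (-3.16 ± 0.18), the catalytic chain of the phagocyte oxidase, Gclm (-2.40 ± 0.10), for glutathione, and Hmox1 (-2.36 ± 0.10), which degrades heme, were lower, and the oxidase subunit Ncf1 (1.04 ± 0.11) was higher, while the call of Sod1 (0.44 ± 0.12), the other member that was higher, was lost after cyclic loess (limma adjusted p = 0.0599). Of 15 iron genes 1 was higher and 11 lower. Hamp, which encodes the iron hormone hepcidin, read 5.52, 5.85 and 4.90 in GM-DC and 10.16, 10.37 and 10.00 in GM-MF (-4.75 ± 0.25), Hp (-4.67 ± 0.13), which binds free haemoglobin, and Lcn2 (-3.68 ± 0.13), which binds bacterial siderophores, were lower.

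Of 24 matrix proteases and inhibitors 8 were higher in GM-DC and 14 lower, median -1.64. Serpinb6b (4.68 ± 0.22) and Serpinb9b (3.83 ± 0.23), intracellular protease inhibitors with near copies in the mouse, stood on the GM-DC side, and Serpinb2 (-5.30 ± 0.41), plasminogen activator inhibitor 2, with Mmp13 and Mmp8 on the other. Of 27 actin and cell shape genes 13 were higher and 3 lower, with 11 not called, median 0.26. After Scin and Fscn1 came Rhof (3.25 ± 0.22), a GTPase that makes filopodia. Msn (-0.64 ± 0.09) and Ezr (-0.51 ± 0.10), which link actin to the membrane, were lower, and Actb and Arpc2 (11.42 ± 0.05 in GM-DC and 11.31 ± 0.08 in GM-MF, SD, n = 3) were not called. Of 28 cell cycle genes 14 were higher and 8 lower, median 0.33. Cdk2 (2.60 ± 0.16), Mcm3 (2.45 ± 0.16), a helicase subunit of replication, and cyclin D1 gene Ccnd1 (2.14 ± 0.20) were higher, whereas Ccnb2 (-1.53 ± 0.16), a mitotic cyclin, Rrm2 (-1.02 ± 0.21), for nucleotide synthesis, and Mki67 (-1.01 ± 0.15), a proliferation marker, were lower.

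Of 23 transcription factors tied to macrophages 17 were lower in GM-DC and 1 was higher, median -0.84. Cebpb, a factor of myeloid and inflammatory genes, read 4.52, 5.16 and 4.39 in GM-DC and 8.69, 8.87 and 8.52 in GM-MF (-4.01 ± 0.18). Bhlhe41 (-3.91 ± 0.24) and Atf3 (-2.88 ± 0.16), a stress-induced repressor of Toll-like receptor responses, were lower, while Bhlhe40 (2.22 ± 0.15), a relative of Bhlhe41, was the member that was higher.

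Genes with a microRNA symbol, host genes included and named after their values were seen, gave 10 higher and 15 lower of 300 measured. That is 8.33% called against 36.3% of all genes, so calls were rarer here than in the whole table. Their probe sets read the precursor or its host RNA, not the mature microRNA. MicroRNAs pair with target mRNAs mainly through the seed, bases 2 to 8 of the mature form, in capitals here. Of the 25 called, 24 were matched to a RefSeq entry on GRCm38.p6. The other, Mir100hg (-0.27 ± 0.10), is by its name a host gene and not itself a microRNA. Of the matched genes, 1 mature form is shown for those with a difference of at least 1 log2 unit and those that share a seed with another.
mmu-miR-221-3p: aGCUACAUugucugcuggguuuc
mmu-miR-222-3p: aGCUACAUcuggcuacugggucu
mmu-miR-146a-5p: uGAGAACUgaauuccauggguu
mmu-miR-146b-5p: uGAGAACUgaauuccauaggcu
mmu-miR-142a-3p: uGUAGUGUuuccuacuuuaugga
mmu-miR-17-5p: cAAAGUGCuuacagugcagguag
mmu-miR-20a-5p: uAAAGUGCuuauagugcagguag
mmu-miR-18a-5p: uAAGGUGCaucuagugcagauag
mmu-miR-202-3p: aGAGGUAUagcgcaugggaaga
mmu-let-7i-5p: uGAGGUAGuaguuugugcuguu
mmu-let-7e-5p: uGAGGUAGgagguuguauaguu
Mir221 and Mir222, which share a seed and lie within 1 kb on chromosome X, were both lower in GM-DC. Mir221 read 4.79, 5.0 and 4.86 in GM-DC and 8.07, 7.98 and 8.04 in GM-MF (-3.15 ± 0.10) and Mir222 2.96, 3.77 and 3.45 in GM-DC and 5.99, 4.71 and 5.68 in GM-MF (-2.07 ± 0.27). Mir146 (-1.01 ± 0.16) and Mir146b (-0.80 ± 0.19), on chromosomes 11 and 19, share another seed and were lower too, at levels under the array medians. Mir142, a microRNA of blood cells, read 7.32, 7.42 and 7.69 in GM-DC and 5.92, 6.24 and 5.71 in GM-MF (1.52 ± 0.15). Mir17 (1.00 ± 0.20), Mir20a (0.80 ± 0.21) and Mir18 (1.23 ± 0.21), neighbours on chromosome 14 that may share a transcript, were higher in GM-DC, Mir17 and Mir20a having a seed in common. Mir202 (1.35 ± 0.21) was higher as well, while Mirlet7i (-0.73 ± 0.18) and Mirlet7e (-0.37 ± 0.12), which share the let-7 seed, were lower.

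The difference with LPS was set against the same difference without LPS in the same fit, which asks where stimulation widened, narrowed or turned the gap between the cell types. This difference of differences was called for 1514 genes (7.59%), 904 positive, meaning that GM-DC gained on GM-MF with LPS (4.53%), and 610 negative (3.06%). Of these, 1250 also differed with LPS. For 221 genes that were higher in GM-DC with LPS and had a positive value, no difference was called without LPS, and the same held for 153 genes that were lower. Called differences of opposite sign with and without LPS, with the change itself called, were found for 95 genes, 62 of them higher in GM-DC with LPS.

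For most interferon-stimulated genes the gap narrowed. The median difference of the list was -4.16 without LPS and -2.11 with it, and 26 of 34 members had a called positive value. Slfn1, a relative of Slfn4 outside the list, read 4.48, 4.20 and 3.92 in GM-DC and 10.50, 10.79 and 10.68 in GM-MF without LPS and 8.57, 9.28 and 7.82 in GM-DC and 10.87, 10.89 and 10.98 in GM-MF with it, a change of 4.10 ± 0.36 (limma adjusted p = 5.32e-06). Ifit1 read 4.4, 4.69 and 4.23 in GM-DC and 11.06, 11.07 and 11.04 in GM-MF without LPS and 9.0, 9.49 and 8.81 in GM-DC and 11.79, 11.69 and 11.77 in GM-MF with it, a change of 3.97 ± 0.21. Xaf1 (3.84 ± 0.22), Samd9l (3.83 ± 0.23), Rtp4 (3.81 ± 0.30), Ifit2 (3.72 ± 0.24) and Ifi207 (3.94 ± 0.22), a DNA sensor relative, changed alike. For all 7 the gap shrank without closing, as GM-DC with LPS was still lower, Xaf1 at -0.89 ± 0.16 and Ifi207 at -1.10 ± 0.16. The 3 members with a called negative value were Ch25h (-2.17 ± 0.26), Slfn4 (-1.37 ± 0.25) and Mx1, the last named after its values were seen (-0.64 ± 0.13), which widened. Of 20 cholesterol genes 12 had a called positive value, the list median going from -0.09 to 0.80. Lrrc32, which displays latent TGF-beta on cells, turned from -2.64 ± 0.23 to 1.12 ± 0.23.

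Several cytokines shifted toward GM-MF with LPS. Of 26 members 11 had a called negative value and 4 a positive one, and the list median went from -0.20 without LPS to -2.21 with it. Il6 read 7.57, 7.48 and 8.20 in GM-DC and 5.57, 6.88 and 5.57 in GM-MF without LPS and 9.51, 9.67 and 10.02 in GM-DC and 12.28, 12.02 and 12.36 in GM-MF with it, a change of -4.23 ± 0.41 (limma adjusted p = 1.26e-05) that turned its direction. Nos2 read 4.13, 4.26 and 4.47 in GM-DC and 6.15, 8.43 and 6.11 in GM-MF without LPS and 5.02, 5.84 and 5.35 in GM-DC and 11.68, 11.75 and 11.50 in GM-MF with it, a change of -3.63 ± 0.62. Il19 differed by -0.18 ± 0.15 without LPS and changed by -3.56 ± 0.22. Hamp (-4.05 ± 0.35), Il1f6 (-3.71 ± 0.28), a cytokine of the interleukin-36 type, Penk (-3.27 ± 0.34), which encodes enkephalin, Hdc (-3.11 ± 0.25), which makes histamine, and Zfp558 (-3.10 ± 0.18), a zinc finger gene, completed the 8 most negative. Without LPS Il19, Penk and Hdc stood within 0.5 log2 units between the cell types (-0.18, 0.06 and -0.42). A negative value was not always a wider gap: Il12b changed by -2.78 ± 0.35, its lead in GM-DC going from 2.84 ± 0.24 without LPS to 0.05 ± 0.24 with it, which was not called. Tnf was among the positive ones at 1.74 ± 0.38, the gap narrowing from -5.05 ± 0.27 to -3.31 ± 0.27.

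Among the dendritic cell genes the changes were uneven. Cd70 widened by 3.12 ± 0.38, from 1.97 ± 0.27 to 5.10 ± 0.27. Pvr widened by 2.43 ± 0.24, from 0.47 ± 0.17 to 2.90 ± 0.17. Bcl2l1 changed by 2.61 ± 0.26, from -0.30 ± 0.18 without LPS, which was not called, to 2.31 ± 0.18 with it. Ccr7 narrowed, with a change of -2.52 ± 0.37, from 5.07 ± 0.26 to 2.55 ± 0.26, and Cd80 (-1.39 ± 0.20), Cd83 (-1.06 ± 0.30) and Ccl22 (-1.29 ± 0.32) narrowed less. The changes of Flt3 (0.15 ± 0.22) and Zbtb46 (-0.04 ± 0.18) were not called, and those of Fscn1 (-1.45 ± 0.45, limma adjusted p = 0.0676) and Irf4 (1.02 ± 0.30, 0.0564) missed the threshold narrowly.

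**Figure D5:**
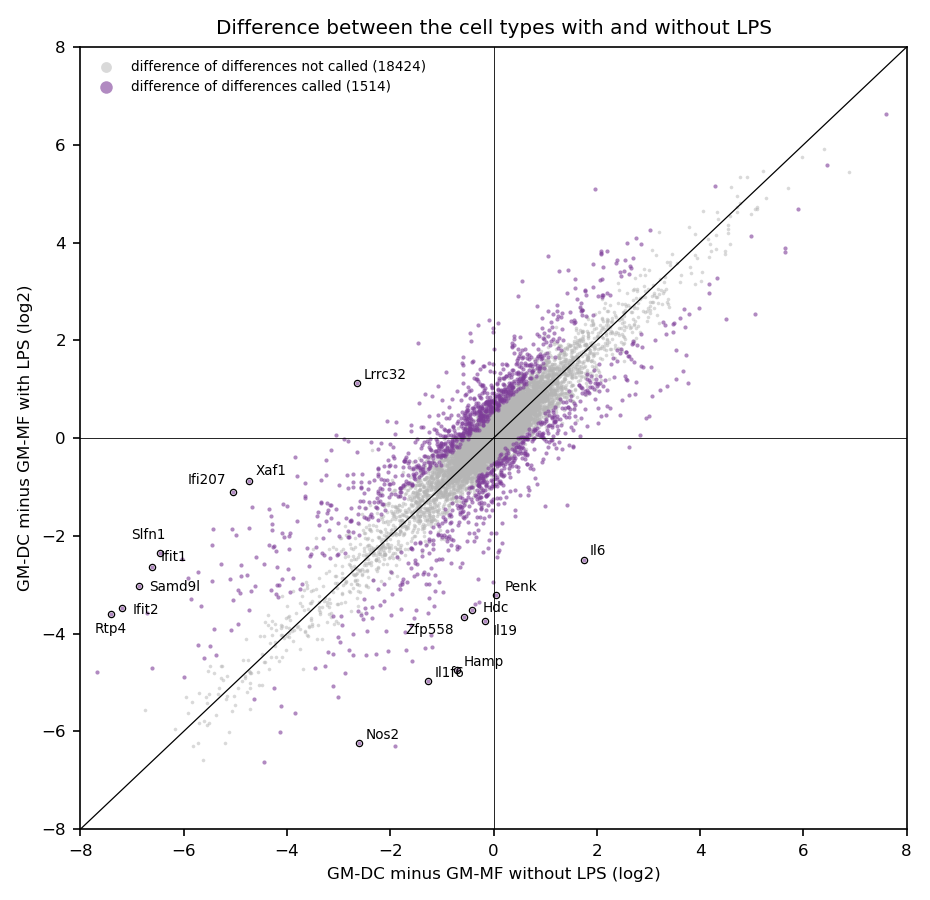
Difference between GM-DC and GM-MF (log2) without LPS (horizontal axis) and with LPS (vertical axis) for 19938 genes, 3 arrays a group, with the diagonal of no change. Purple points are the 1514 genes whose change was called. Interferon-stimulated genes such as Ifit1 (-6.62 and -2.65) lie above the diagonal on the left, and Il6 (1.74 and -2.49) and Nos2 (-2.61 and -6.24) below it.

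Markers of other cells that such cultures can hold were read on the same arrays. Of 7 monocyte markers 5 were lower in GM-DC and 2 not called, median -2.26, with the list mean per array at 5.32 to 5.59 in GM-DC and 7.49 to 7.61 in GM-MF. Chil3, a lectin-like protein of monocytes and macrophages, read 5.27, 6.03 and 6.16 in GM-DC and 11.22, 11.03 and 11.04 in GM-MF (-5.28 ± 0.20), and F13a1 (-3.12 ± 0.19), a clotting factor, was lower too. Of 16 neutrophil markers 2 were higher and 9 lower, with 5 not called, the list mean being 5.26 to 5.34 in GM-DC and 6.05 to 6.28 in GM-MF. Mmp8 and Lcn2 led those lower, followed by S100a8 (-1.50 ± 0.11), and the granule genes Prtn3 (2.15 ± 0.15) and Mpo (0.87 ± 0.16) were higher in GM-DC. The list members Elane (4.41 ± 0.05 in GM-DC and 4.61 ± 0.12 in GM-MF, SD, n = 3) and Ngp (5.35 ± 0.41 in GM-DC and 5.93 ± 0.50 in GM-MF) were not called, with Elane under the array medians in both cell types. Ngp was called lower in GM-DC with the replicate block (limma adjusted p = 0.0159) and without GM-MF array 2 with LPS (0.0325). At an unadjusted p under 0.05, 0 monocyte markers were higher. The part of monocytes and neutrophils in the differences of the macrophage, cytokine, lectin and lysosomal lists was not tested.

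Among all genes 36.3% were called, 20.9% higher in GM-DC and 15.4% lower. The share called was under 36.3% in the lists of mast cell, T and NK cell, B cell, eosinophil and erythroid markers that follow. Of 12 mast cell and basophil markers 1 (Kit, 0.87 ± 0.21) was higher and 1 (Hdc) lower, with 10 not called, Gata2 (4.6 ± 0.08 in GM-DC and 4.54 ± 0.26 in GM-MF, SD, n = 3) lying at or under the array medians. Of 10 T and NK cell markers 3 were higher in GM-DC, led by Cd8a (3.14 ± 0.17), a chain that some dendritic cells carry, at 7.27, 7.09 and 7.17 in GM-DC and 4.02, 3.97 and 4.15 in GM-MF, and by Thy1 (0.99 ± 0.20). The remaining one, Cd3g (0.41), lost its call in the fit on the 6 LPS arrays alone (limma adjusted p = 0.0555). Its call was also lost without GM-DC array 2 (0.0904), GM-DC array 3 (0.0809), GM-MF array 1 (0.0827) or GM-MF array 2 (0.127) with LPS. Cd8b1 (3.91 ± 0.01 in GM-DC and 3.94 ± 0.08 in GM-MF, SD, n = 3) and Cd3e (4.96 ± 0.33 in GM-DC and 5.02 ± 0.12 in GM-MF) were not called. The list mean per array was 4.15 to 4.26 in GM-DC and 3.75 to 3.82 in GM-MF. Of 8 B cell markers 2 were higher, Cd79b (0.91 ± 0.15) and Blk (0.59 ± 0.20), a kinase of B cells, with list means of 3.74 to 3.92 in GM-DC and 3.63 to 3.74 in GM-MF. The call of Blk was lost without GM-DC array 2 (limma adjusted p = 0.102), GM-DC array 3 (0.131), GM-MF array 1 (0.156) or GM-MF array 2 (0.0553) with LPS, leaving 1 B cell marker. Of 9 stromal markers 4 were lower, led by Cdh5 (-2.13 ± 0.14) and Lepr (-2.07 ± 0.19), with list means of 4.01 to 4.20 in GM-DC and 4.76 to 4.97 in GM-MF. Of 5 eosinophil markers 1 (Siglecf, -0.36 ± 0.13) was lower, a call lost in the fit on the 6 LPS arrays alone (limma adjusted p = 0.0529), with a trended or robust eBayes (0.0637 and 0.0502), with the replicate block (0.0677) and without any of 4 LPS arrays (up to 0.225) or any of 5 arrays without LPS (up to 0.0587). Of 4 erythroid markers 0 were called by limma, with 0 higher and 0 lower at an unadjusted p under 0.05. The part of these cells in the differences was not tested. Among 13 genes of handling stress and early response 3 were higher (23.1%), led by Hspa1a (1.46 ± 0.13), against 20.9% of all genes. Lower were 4 (30.8%), led by Jund (-0.87 ± 0.11), against 15.4%. The other 6 were not called, among them Egr1 (7.51 ± 0.17 in GM-DC and 7.80 ± 0.10 in GM-MF), which was called after cyclic loess (limma adjusted p = 0.0164).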

How the data were processed

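The values are log2 expression per probe set of Affymetrix Mouse Gene 1.0 arrays, deposited by the authors as 1 table. The submitters' processing notes name RMA, which subtracts background, normalizes and summarises probes, and R 3.0.2. RMA settings and the genome build were not given in the sources used here, and base 2 was taken from the range of the values. Of 35556 probe sets, 21789 had 1 gene symbol in the platform annotation, 1621 several and 12146 none. By Entrez ID 21698 of the first were found in RefSeq and 91 were not. For 999 genes with several probe sets 1 was kept, giving 19938 genes.

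All 12 arrays were fitted by group with limma 3.58.1 in R 4.3.3 (lmFit, eBayes), with Benjamini-Hochberg adjustment over all genes. The spread had 8 residual and 6.31 prior degrees of freedom. The calculation was tested on simulated data. With 3 arrays a group, their number limits the precision. The members and gene lists were chosen with earlier results of these data known. Genes were named by rule: the 15 largest differences each way, the 5 most abundant each way, up to 3 called each way and 2 not called per list, the 15 most abundant list members at like levels, the 8 largest changes each way, a set of known markers, and the windows with a motif. Others are said to be named after their values were seen. The 15 and the 5 were drawn from called genes whose groups did not overlap, the 5 with at least a 2-fold difference. Clone and model names were skipped for the 15, the 5 and the 8. Of 982 list entries in 49 lists 894 were measured.

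Replicate numbers are shared between groups in the labels. Deviations of same-numbered arrays correlated at 0.156, -0.0047 and 0.0846 between GM-DC and GM-MF with LPS, and those of unlike-numbered arrays at -0.135 to 0.0512. The labels state no pairs between the cell types, so the fit used none, and a replicate block is given below. Between arrays with and without LPS of 1 cell type they correlated at 0.104 to 0.363, and unlike-numbered ones at -0.25 to 0.164. The labels do not say whether these are pairs. The fit behind the 1514 changes with LPS did not treat them as pairs, and a block that did is given below. Alternatives were median centring, quantile normalization, cyclic loess, filters on low values, averaged probe sets, the 6 LPS arrays alone, a trended or robust eBayes, a replicate block, a stricter threshold and each array left out.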

Additional observations from a re-analysis of the deposited data

Results flagged for a closer look

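For 16 genes the difference between GM-DC and GM-MF with LPS was set apart because it differed most from the same difference without LPS by limma's test of that change. The positive changes were Slfn1 (4.10), Ifit1 (3.97), Ifi207 (3.94), Xaf1 (3.84), Samd9l (3.83), Rtp4 (3.81), Lrrc32 (3.76) and Ifit2 (3.72), in log2 units. The negative changes were Il6 (-4.23), Hamp (-4.05), Il1f6 (-3.71), Nos2 (-3.63), Il19 (-3.56), Penk (-3.27), Hdc (-3.11) and Zfp558 (-3.10).

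Probe sets that the annotation gives no gene symbol or several lay outside the gene comparisons. Of 13767 such probe sets 2484 were called in a limma fit on the whole table, and 839 of them differed at least 2-fold with LPS, 455 higher in GM-DC and 384 lower.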

How the results depend on the processing

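The count of 7228 genes that differed with LPS ran from 6593 to 7407 with each array left out, and that of 2572 at least 2-fold from 2526 to 2663. The count of 1514 genes whose difference changed with LPS ran from 1180 to 1748, and that of 649 at least 2-fold from 594 to 716. At an adjusted p under 0.01 the count of 1514 fell to 862, by the stricter threshold itself. With the replicate block the counts were 7343, 2572, 1652 and 662, and with cell type and replicate number together as a block, chosen after seeing the data, 1939 genes changed with LPS. Of the genes called, 57.6% were higher in GM-DC as deposited, 51.9% after median centring, 53.7% after quantile normalization and 47.2% after cyclic loess, so the balance of small differences depends on the scaling. Over 351 named genes and 8011 values under the alternatives, no gene called as deposited or under the alternative turned direction. A change of sign in a gene called in neither was not counted. Of the 8011 values 119 lost their call and 95 gained one. All 365 values of the 16 largest changes with LPS kept direction and call. List counts moved past 1.5 times in 22 of 1124 values, for eosinophil, B cell, neutrophil and stromal markers. The medians of class II and of some lists near 0 changed sign with the scaling. After cyclic loess class II went to -0.04, IRF and STAT factors from 0.14 to -0.01 and handling stress genes from 0.08 to -0.08. SOCS inhibitors went from 0.03 to -0.14 with the same scaling.

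No background call was available, so low signals were not shown to be expression and folds against them are ratios of signals. The labels do not say whether arrays came from separate cultures.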
